A study of Homo sapiens with 12 samples.

Results

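The genes described here are 8 genes of cholesterol synthesis and its control, SREBF2, HMGCS1, MVD, IDI1, FDPS, FDFT1, SQLE and INSIG1, out of 60649 genes counted in each library. They were chosen by symbol with earlier results of these data known, so their counts set beside those of all genes are descriptions. Each symbol matched 1 row of the count tables, and all 8 passed the expression filter that left 16683 genes to test. RNA sequencing was done on spheroids of SBC3, an established human small cell lung cancer line, in 4 treatment groups of 3 libraries: control, teriflunomide, lurbinectedin, and both drugs together. Teriflunomide inhibits DHODH, a mitochondrial enzyme that makes pyrimidines, and lurbinectedin binds DNA in its minor groove and inhibits transcription by RNA polymerase II. The control group carries the treatment label Control, with no vehicle named, and all 12 libraries come from the same line with no genetic change named. Neither the drug concentrations nor the length of treatment is given in the sources used here. Nothing in the labels says that the 3 libraries of a group came from separate cultures, so p-values measure only the spread between these libraries, which may be technical.

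Cells make cholesterol from acetyl-CoA through mevalonate, isoprenoid diphosphates and squalene. SREBF2 encodes SREBP-2, the transcription factor that switches on the enzymes of this route and the receptor that takes up lipoprotein cholesterol. When membranes hold enough sterol, INSIG proteins keep SREBP-2 and its escort SCAP in the endoplasmic reticulum; when sterol falls, SREBP-2 moves to the Golgi apparatus, is cleaved, and enters the nucleus. INSIG1 is itself a target of SREBP-2 and so closes a feedback loop. The enzymes among the 8 genes act in this order: HMGCS1 makes HMG-CoA, MVD makes isopentenyl diphosphate, IDI1 converts it to dimethylallyl diphosphate, FDPS joins these units into farnesyl diphosphate, FDFT1 condenses farnesyl diphosphate into squalene, and SQLE oxidises squalene. No member is a cholesterol uptake receptor, so the set is one of synthesis enzymes and their regulators.

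SREBP-2 acts on promoters through sterol regulatory elements, usually beside binding sites for the general factors NF-Y (the CCAAT box) and Sp1 (the GC box), so the sequences upstream of the members are shown here for those letters. In the RefSeq promoter table (GRCh38.p14) 6 of the 8 members had 9 start windows, while FDFT1 and SQLE had none. The 250 bases before each start were searched on both strands. The letters searched were TCACNCCAC for a sterol regulatory element, ATTGG for an inverted CCAAT box and GGGCGG for a GC box, and matches of different motifs did not overlap in the members' windows. The upstream sequences of SREBF2 (chr22:41832855-41833078, plus strand), HMGCS1 (chr5:43313513-43313662, minus strand), MVD (chr16:88663162-88663341, minus strand) and IDI1 (chr10:1049120-1049369, minus strand) are printed 5′ to 3′ on the gene's strand up to the first base of the gene model in the count tables, with matches in capitals. They carry the regulator and the first 3 enzymes of the route among the members.
SREBF2: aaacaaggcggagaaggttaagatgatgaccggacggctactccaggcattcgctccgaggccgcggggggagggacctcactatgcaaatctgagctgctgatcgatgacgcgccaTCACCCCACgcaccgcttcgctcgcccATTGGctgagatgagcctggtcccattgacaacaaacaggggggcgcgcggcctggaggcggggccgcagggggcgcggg
HMGCS1: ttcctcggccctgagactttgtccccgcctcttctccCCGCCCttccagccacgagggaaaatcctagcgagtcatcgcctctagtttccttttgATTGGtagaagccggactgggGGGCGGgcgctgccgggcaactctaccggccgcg
MVD: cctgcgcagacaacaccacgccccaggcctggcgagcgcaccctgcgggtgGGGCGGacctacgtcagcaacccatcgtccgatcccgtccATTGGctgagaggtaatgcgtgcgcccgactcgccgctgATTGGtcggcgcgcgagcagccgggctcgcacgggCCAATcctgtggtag
IDI1: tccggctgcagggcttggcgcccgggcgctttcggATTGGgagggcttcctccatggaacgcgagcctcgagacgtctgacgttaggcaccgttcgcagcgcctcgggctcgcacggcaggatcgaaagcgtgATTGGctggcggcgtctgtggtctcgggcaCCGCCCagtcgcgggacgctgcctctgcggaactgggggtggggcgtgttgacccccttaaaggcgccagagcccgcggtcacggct
The SREBF2 window held TCACCCCAC starting 133 bases before its RefSeq start, followed by an ATTGG starting 106 bases before it. SREBF2 was the member whose window matched TCACNCCAC, letters that 310 of all 35116 windows of this length (0.883%) held. ATTGG was found in 7 of the 9 windows, against 32.0% of all windows, and GGGCGG in all 9, against 42.6%. Each of the 6 members had ATTGG in at least 1 window, but HMGCS1 had 2 windows and IDI1 had 3. These matches describe letters in a window, and no match says only that the letters are not in that window.

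Identities and positions, from the count tables on GRCh38, were as follows for the regulators. SREBF2 (ENSG00000198911.12) lies on chromosome 22 from 41833079 to 41907307 on the plus strand, a genomic span of 74.2 kb, the longest of the 8. INSIG1 (ENSG00000186480.13) lies on chromosome 7 from 155297776 to 155310235 on the plus strand. Among the early enzymes, HMGCS1 (ENSG00000112972.15) lies on chromosome 5 from 43287470 to 43313512 and MVD (ENSG00000167508.12) on chromosome 16 from 88651935 to 88663161, both on the minus strand. IDI1 (ENSG00000067064.12) lies on chromosome 10 from 1039152 to 1049119 on the minus strand and spans 9.97 kb, the shortest. FDPS (ENSG00000160752.15) lies on chromosome 1 from 155308748 to 155320666 on the plus strand. The squalene enzymes FDFT1 (ENSG00000079459.13) and SQLE (ENSG00000104549.12) lie on chromosome 8, from 11795573 to 11839304 and from 124998497 to 125022283, both on the plus strand. Exons of 5 members overlap an exon of a gene on the opposite strand, by 217 bases in FDFT1 to 2497 bases in HMGCS1, and strand use in counting is not given in the sources used here. The overlapping gene held at most 117 counts in any library, in the case of FDPS and RUSC1-AS1. IDI2-AS1, which overlaps IDI1 by 643 bases, held 1 to 6 counts without lurbinectedin and 34 to 44 with it.

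Total counts ran from 23206414 to 33222162 per library. Of the 3 teriflunomide libraries, replicate 3 stood apart: mitochondrial genes took 22.6% of its counts against 8.42% and 8.43% in the other 2, and its counts differed from theirs with a chi-square per degree of freedom of 256 and 274, against 3.49 between those 2. In the combination group, replicate 2 had a mitochondrial share of 24.9% against 13.1% and 14.6%, with values of 82.1 and 128. The share was 6.26% to 7.17% in controls and 13.8% to 17.0% with lurbinectedin alone. Comparisons that use these 2 libraries are also given without them below. Among markers of small cell lung cancer subtypes and neuroendocrine state, POU2F3, CHGA, INSM1 and NCAM1 were at or near 0 in all 12 libraries (at most 0.654 CPM), NEUROD1 was at 1.5 to 6.51 CPM, SYP at 14.1 to 36.2 CPM, ENO2 at 28.9 to 87.1 CPM and YAP1 at 60.2 to 343 CPM. Of the 6 markers of fibroblasts, leukocytes and endothelium, DCN, PTPRC and VWF were at most 0.0957 CPM, PECAM1 at most 0.545 CPM and COL3A1 at most 1.30 CPM. COL1A1 was at 233 to 272 CPM without lurbinectedin and 93.6 to 114 CPM with it, and the 6 summed to 234 to 274 CPM and 93.9 to 114 CPM. The part of these markers in the changes below was not tested.

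Levels are given as CPM, read counts relative to each library's TMM-adjusted size, for replicates 1, 2 and 3 in that order. The regulator SREBF2 was at 205, 200.3 and 219 CPM in control and at 227, 222 and 176 CPM with teriflunomide. It was at 117, 129 and 140.0 CPM with lurbinectedin and at 129, 104 and 133 CPM with the combination. The 6 libraries with lurbinectedin lay below the 6 without it, while teriflunomide replicates fell on both sides of the controls. INSIG1, which holds SREBP-2 back, was at 64.6, 64.1 and 61.7 CPM in control and 73.7, 71.2 and 64.9 CPM with teriflunomide. With lurbinectedin INSIG1 was at 44.5, 51.3 and 47.2 CPM, and with the combination at 52.3, 50.8 and 46.1 CPM. Both lurbinectedin groups again lay below the others, and the lowest teriflunomide library was just above the highest control.

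HMGCS1, the synthase at the head of the route, was at 122, 132 and 120.2 CPM in control and at 166, 144 and 193 CPM with teriflunomide. It was at 80.0, 85.6 and 82.9 CPM with lurbinectedin and at 79.5, 86.3 and 76.5 CPM with the combination. The teriflunomide libraries were all above the controls, and those with lurbinectedin were all below them. MVD, the decarboxylase that ends the mevalonate steps, was the lowest of the 8, at 21.7, 19.99 and 20.6 CPM in control and 27.5, 25.7 and 11.9 CPM with teriflunomide. It was at 28.1, 24.0 and 27.7 CPM with lurbinectedin and at 20.7, 22.0 and 25.3 CPM with the combination. Teriflunomide replicate 3 held the lowest MVD value of the 12 libraries, while the other 2 teriflunomide libraries and all 3 lurbinectedin libraries lay above every control.

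IDI1, the isomerase, was at 99.9, 99.4 and 90.2 CPM in control and at 129, 117 and 139 CPM with teriflunomide. It was at 91.6, 99.1 and 88.0 CPM with lurbinectedin and at 92.9, 109 and 69.8 CPM with the combination. Only the teriflunomide group of IDI1 stood clear of the other 3, which overlapped one another. FDPS, the farnesyl diphosphate synthase, was at 220.0, 216 and 219.7 CPM in control and at 259, 248 and 185 CPM with teriflunomide. With lurbinectedin FDPS was at 179.8, 171 and 173 CPM, and with the combination at 146, 139 and 165 CPM. All lurbinectedin libraries were below control, the combination was below lurbinectedin alone without overlap, and teriflunomide replicate 3 was below control where the other 2 were above it.

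FDFT1, the squalene synthase, had the highest mean CPM of the members, at 261, 268 and 261 CPM in control and 349, 331 and 334 CPM with teriflunomide. It was at 172, 174 and 179 CPM with lurbinectedin and at 161, 149 and 181 CPM with the combination. The 4 groups of FDFT1 fell into 3 levels without overlap, teriflunomide, then control, then both lurbinectedin groups. SQLE, the squalene epoxidase, was at 178, 184 and 189 CPM in control and at 195, 176 and 235 CPM with teriflunomide. Its lurbinectedin libraries were at 134, 139.8 and 146 CPM and its combination libraries at 129, 152 and 133 CPM. SQLE was lower in every lurbinectedin library than in every other, and its teriflunomide libraries spanned the control range.

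**Figure D1:**
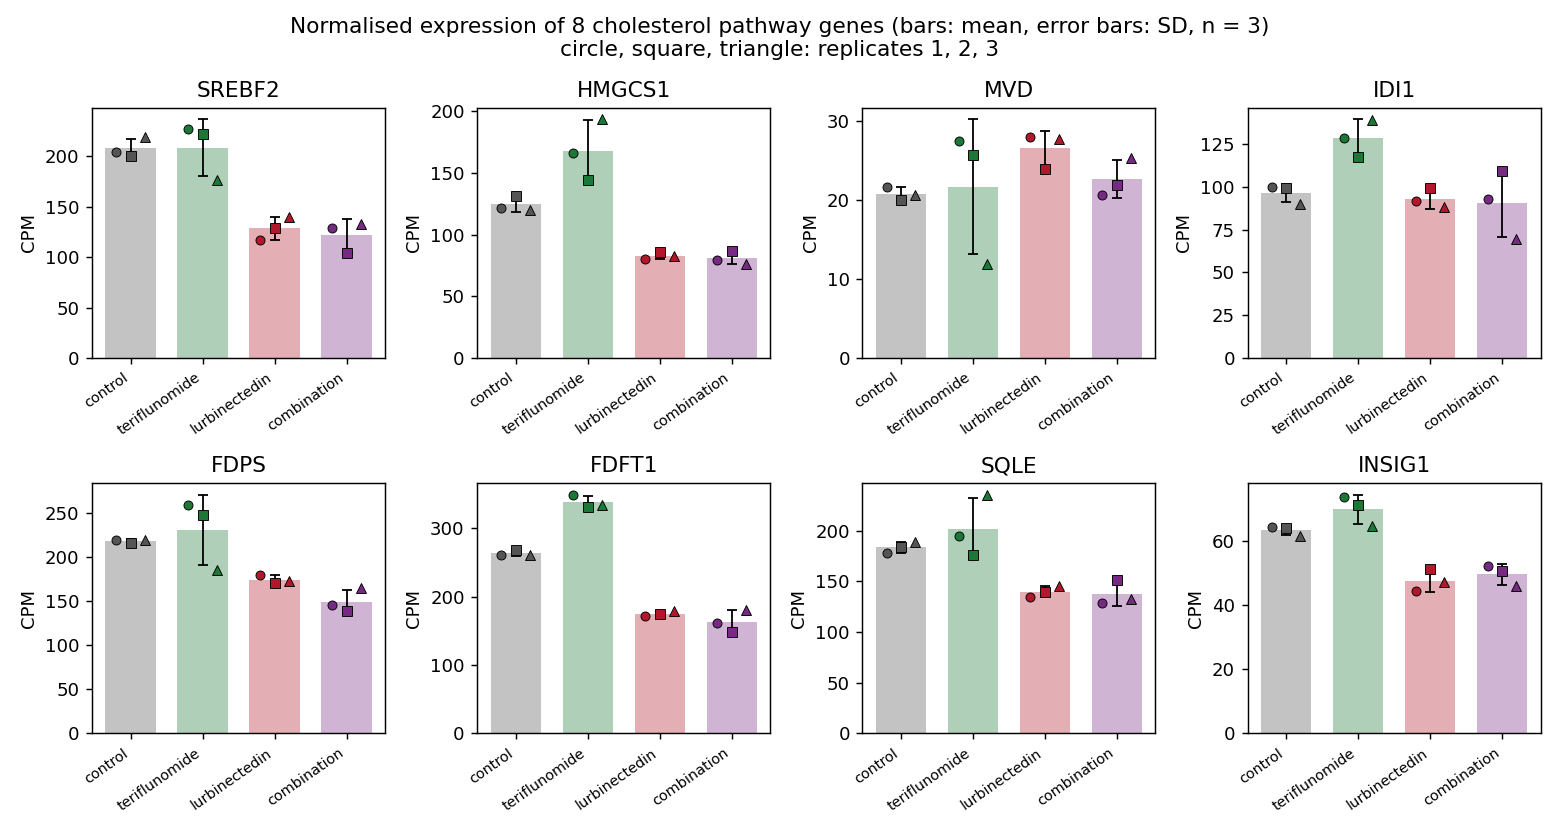
CPM (vertical axis, linear, from 0) of each of the 8 genes in control, teriflunomide, lurbinectedin and the combination; bars are means, error bars the SD of 3 libraries, and circles, squares and triangles replicates 1, 2 and 3. In SREBF2, HMGCS1, FDPS, FDFT1, SQLE and INSIG1 the 6 libraries with lurbinectedin lie below the controls, whereas MVD and IDI1 do not show this, and the teriflunomide triangle is the lowest of its group in SREBF2, MVD, FDPS and INSIG1.

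Levels of different genes were compared per kb of exon length, counted over all exons of each gene model. The transcripts in use were not determined, so the order of genes holds for this measure. In control the order was FDPS at 58.8 ± 0.550 CPM per kb (SD, n = 3), FDFT1 at 50.7 ± 0.808, SQLE at 42.7 ± 1.24, SREBF2 at 27.5 ± 1.27, IDI1 at 22.5 ± 1.27, HMGCS1 at 18.8 ± 0.928, INSIG1 at 17.4 ± 0.425 and MVD at 4.40 ± 0.185, all in the same unit, and no neighbours in that order overlapped. With teriflunomide FDFT1 came first at 65.0 ± 1.81 CPM per kb, but it overlapped FDPS at 62.1 ± 10.7. FDPS also overlapped SQLE there, and the levels of IDI1, SREBF2 and HMGCS1 followed one another with overlap. With lurbinectedin FDPS led again at 47.0 ± 1.27 CPM per kb, FDFT1 and SQLE overlapped at 33.7 ± 0.721 and 32.5 ± 1.32, and SREBF2 at 17.0 ± 1.52 fell behind IDI1 at 21.6 ± 1.32. The combination kept FDPS first at 40.2 ± 3.61 CPM per kb, clear of SQLE at 32.1 ± 2.83 and FDFT1 at 31.5 ± 3.12, which overlapped. MVD was last in all 4 groups and stood clear of its neighbour in each.

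Lurbinectedin alone lowered 6 of the 8 genes, the regulator SREBF2, its brake INSIG1, and the enzymes HMGCS1, FDPS, FDFT1 and SQLE, by 1.25-fold to 1.62-fold. Mean SREBF2 went from 208 ± 9.58 to 129 ± 11.5 CPM (SD, n = 3), a log2 fold change of -0.69 (SE 0.124) with an adjusted p of 0.000185 in edgeR's quasi-likelihood test with Benjamini-Hochberg adjustment over all genes tested. FDFT1 declined from 263 ± 4.197 to 175 ± 3.75 CPM (log2 fold change -0.59, SE 0.0883, edgeR adjusted p = 3.56e-05). HMGCS1 declined from 124 ± 6.15 to 82.8 ± 2.79 CPM (-0.59, SE 0.109, edgeR adjusted p = 0.000254). For INSIG1 the log2 fold change was -0.41, for SQLE -0.39 and for FDPS -0.32, with edgeR adjusted p-values of 0.00210, 0.00563 and 0.0234. MVD had a log2 fold change of 0.36 (approximate 95% interval -0.09 to 0.80, edgeR adjusted p = 0.176) and IDI1 of -0.05 (interval -0.33 to 0.22, edgeR adjusted p = 0.736), and neither passed the threshold of 0.05. In a fit of the control and lurbinectedin libraries alone, MVD was called higher (0.34, SE 0.0765, edgeR adjusted p = 0.000129). That fit called 6608 of 15699 tested genes higher and 6541 lower. It was the 1 of 7 alternative fits that called MVD, and 0 of the 6 fits that left out 1 library did.

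The count of 6 lower and 0 higher stands beside a transcriptome in which 71.6% of all tested genes were called with lurbinectedin, 36% higher and 35.7% lower. In 6 members every lurbinectedin library was below every control and in 1, MVD, above, against 40.8% and 42.4% of all tested genes. The median log2 fold change of the members was -0.40, and that of all tested genes was 0.05. In bulk RNA, fewer cells of a type and less RNA per cell cannot be told apart, and CPM give each gene's share of its library's RNA, not molecules per cell. The FDPS call was lost in 4 of the 6 fits that left out 1 library, those without control 1, control 3, lurbinectedin 2 or lurbinectedin 3 (edgeR adjusted p of 0.0537, 0.0550, 0.0672 and 0.0652), while the other 5 calls held in all 6 fits. With total counts as the only scaling, the median of all genes shifted from 0.05 to -0.18, 4313 genes were called higher and 6699 lower against 5999 and 5954, and IDI1 was then called lower (-0.29, edgeR adjusted p = 0.0403).

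Teriflunomide alone raised 2 of the 8 genes, HMGCS1 and FDFT1, and lowered none. HMGCS1 rose from 124 ± 6.15 to 168 ± 24.5 CPM (SD, n = 3), 1.35-fold (log2 fold change 0.43, SE 0.108, edgeR adjusted p = 0.0344). FDFT1 rose from 263 ± 4.197 to 338 ± 9.38 CPM, 1.28-fold (0.36, SE 0.0879, edgeR adjusted p = 0.0307). IDI1 was at 96.5 ± 5.47 CPM in control and 128 ± 10.9 CPM with teriflunomide, without overlap, and did not pass the threshold (0.41, SE 0.138, edgeR adjusted p = 0.0905). For SQLE and INSIG1 the log2 fold changes were each 0.14 (intervals -0.08 to 0.35 and -0.05 to 0.34), for FDPS 0.08 (-0.15 to 0.31) and for MVD 0.06 (-0.38 to 0.51), none past the threshold. SREBF2 itself was at 208 ± 9.58 and 208 ± 28.1 CPM, with an interval of the log2 fold change from -0.24 to 0.24.

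Among all tested genes 6.01% were called with teriflunomide, 3.88% higher and 2.13% lower, which is the background for the 2 members higher and 0 lower. At an unadjusted p under 0.05, 3 members passed, HMGCS1, FDFT1 and IDI1, all higher, against 24.8% of all tested genes in either direction. Every teriflunomide library was above every control in 4 members (HMGCS1, IDI1, FDFT1 and INSIG1) and below in 0, against 20.1% and 16.7% of all tested genes. Neither call held in every alternative. The FDFT1 call held in 1 of 6 fits that left out a library, the fit without teriflunomide 3 (edgeR adjusted p = 0.00931), with p-values up to 0.134 in the others and log2 fold changes of 0.34 to 0.38 in all 6. The HMGCS1 call was lost without control 1, 2 or 3 (edgeR adjusted p of 0.141, 0.0911 and 0.150, log2 fold changes of 0.42, 0.48 and 0.41) and held without any 1 of the teriflunomide libraries. HMGCS1 was also not called with the replicate block, total counts as the only scaling, no expression filter, or only the groups compared in the fit (edgeR adjusted p of 0.0812, 0.111, 0.0503 and 0.106; log2 fold changes of 0.43, 0.34, 0.40 and 0.40). FDFT1 was lost in the same 4 fits (edgeR adjusted p of 0.0709, 0.337, 0.115 and 0.0648; log2 fold changes of 0.36, 0.28, 0.33 and 0.33).

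**Figure D2:**
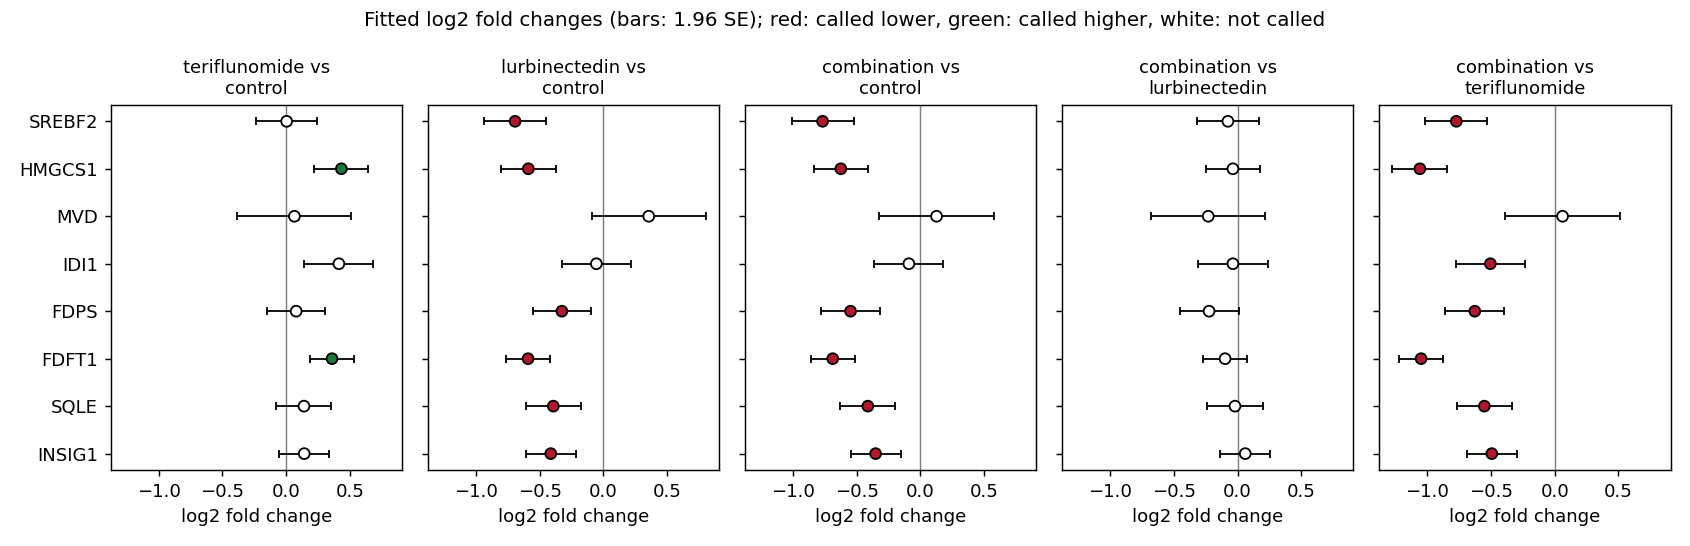
Fitted log2 fold changes (horizontal axis) of the 8 genes in 5 comparisons of groups of 3 libraries; bars are approximate 95% intervals, red points were called lower, green points higher and white points were not called. Teriflunomide shows 2 green points at 0.43 and 0.36, lurbinectedin and the combination each show 6 red points against control, and every point of the combination against lurbinectedin is white.

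With both drugs the same 6 genes that fell with lurbinectedin alone were lower than in control, by 1.28-fold to 1.70-fold. The comparison shares its control libraries with those above, so its values are given side by side with theirs rather than as separate support. SREBF2 was at 122 ± 15.8 CPM (SD, n = 3; -0.77 on the log2 scale), FDFT1 at 164 ± 16.2 CPM (-0.69), HMGCS1 at 80.8 ± 5.04 CPM (-0.62) and FDPS at 149.6 ± 13.4 CPM (-0.55). SQLE was at 138 ± 12.2 CPM (-0.41) and INSIG1 at 49.7 ± 3.26 CPM (-0.35), and edgeR adjusted p-values of the 6 ran from 9.50e-06 for FDFT1 to 0.00646 for INSIG1. MVD, at 22.7 ± 2.39 CPM (0.13, interval -0.32 to 0.57), and IDI1, at 90.7 ± 19.8 CPM (-0.09, interval -0.36 to 0.18), were not called. The 6 calls held in all 6 fits that left out 1 library.

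For this comparison 68.4% of all tested genes were called, 34.1% higher and 34.4% lower, against 0 members higher and 6 lower. The groups of 6 members lay below control without overlap and of 0 above, against 38.5% and 38.7% of all tested genes. The median log2 fold change was -0.48 over the members and 0.04 over all tested genes. With total counts as the only scaling the latter moved to -0.13, 4290 genes were called higher and 6164 lower against 5687 and 5731, MVD turned to -0.03, and IDI1 was called lower (-0.28, edgeR adjusted p = 0.0461).

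Adding teriflunomide to lurbinectedin changed none of the 8 genes at the threshold. FDPS had the smallest edgeR adjusted p, 0.375, at 175 ± 4.70 CPM with lurbinectedin and 149.6 ± 13.4 CPM with the combination (SD, n = 3; log2 fold change -0.22, interval -0.45 to 0.01). MVD was at -0.23 (interval -0.68 to 0.22) and FDFT1 at -0.10 (interval -0.27 to 0.08). For SREBF2 the interval was -0.32 to 0.17, for HMGCS1 -0.25 to 0.18, for IDI1 -0.31 to 0.24, for SQLE -0.24 to 0.20 and for INSIG1 -0.14 to 0.26. FDPS was the member whose groups did not overlap, with the combination below, so 1 member lay below and 0 above, against 12.6% and 11.1% of all tested genes. No tested gene was called in edgeR (0% in either direction), where 2599 genes, none of them a member, had an unadjusted p under 0.05. DESeq2 called 584 genes, again with no member among them.

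Adding lurbinectedin to teriflunomide lowered 7 of the 8 genes, all but MVD. FDFT1 fell 2.07-fold, from 338 ± 9.38 to 164 ± 16.2 CPM (SD, n = 3; log2 fold change -1.05, SE 0.0888, edgeR adjusted p = 1.41e-07). HMGCS1 fell 2.08-fold, from 168 ± 24.5 to 80.8 ± 5.04 CPM (-1.06, SE 0.110, edgeR adjusted p = 1.13e-06). SREBF2 fell by 0.77, FDPS by 0.63, SQLE by 0.55, IDI1 by 0.50 and INSIG1 by 0.49 on the log2 scale, with edgeR adjusted p-values from 7.35e-05 for SREBF2 to 0.00500 for IDI1. The MVD value was 0.06 (interval -0.39 to 0.51). In this comparison 70.9% of all tested genes were called, 35.2% higher and 35.8% lower, beside 0 members higher and 7 lower. The groups of 7 members lay below without overlap and of 0 above, against 35.6% and 35.1%, and the 7 calls held in all 6 fits that left out 1 library.

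Whether the effect of teriflunomide differed in the presence of lurbinectedin was tested by the interaction, the log2 fold change of the combination over lurbinectedin minus that of teriflunomide over control. No member was called, beside 0.258% of all tested genes, 0.036% with a positive and 0.222% with a negative interaction. The lowest values were -0.47 for HMGCS1 (interval -0.77 to -0.17, edgeR adjusted p = 0.303), -0.46 for FDFT1 (interval -0.70 to -0.21, edgeR adjusted p = 0.196) and -0.45 for IDI1 (interval -0.83 to -0.07, edgeR adjusted p = 0.440), the 3 members with an unadjusted p under 0.05, which 10.3% of all tested genes had. DESeq2 called 1 member, FDFT1 (-0.43, adjusted p = 0.0314), beside 1.55% of all tested genes. Without teriflunomide replicate 3, 3 members were called in edgeR, MVD (-0.58, adjusted p = 0.0408), FDPS (-0.43, adjusted p = 0.0367) and FDFT1 (-0.46, adjusted p = 0.0311), beside 3.61% of all tested genes.

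In the 2 libraries that stood apart, members with a lower GC content of their transcripts tended to be higher than in the other libraries of the group. GC content ran from 40.8% in SQLE to 63.9% in MVD around a median of 49.8% over tested genes. Teriflunomide replicate 3 minus the mean of the other 2 teriflunomide libraries, on the log2(CPM + 1) scale, was 0.34 for SQLE, 0.32 for HMGCS1 and 0.18 for IDI1, the 3 members of lowest GC content. It was -0.35 for SREBF2, -0.45 for FDPS and -1.10 for MVD, the 3 of highest GC content. Spearman's rho between GC content and this difference was -0.95 over the 8 members and -0.64 over 16498 tested genes with a GC value. Combination replicate 2 minus the other 2 combination libraries was 0.44 for IDI1, 0.21 for SQLE and 0.14 for HMGCS1, and -0.33 for SREBF2, but -0.06 for MVD, the member of highest GC content. Its rho was -0.76 over the members and -0.28 over all genes. These correlations run across genes that share the same libraries and are descriptions. The part of GC content or of the mitochondrial share in these differences was not tested.

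**Figure D3:**
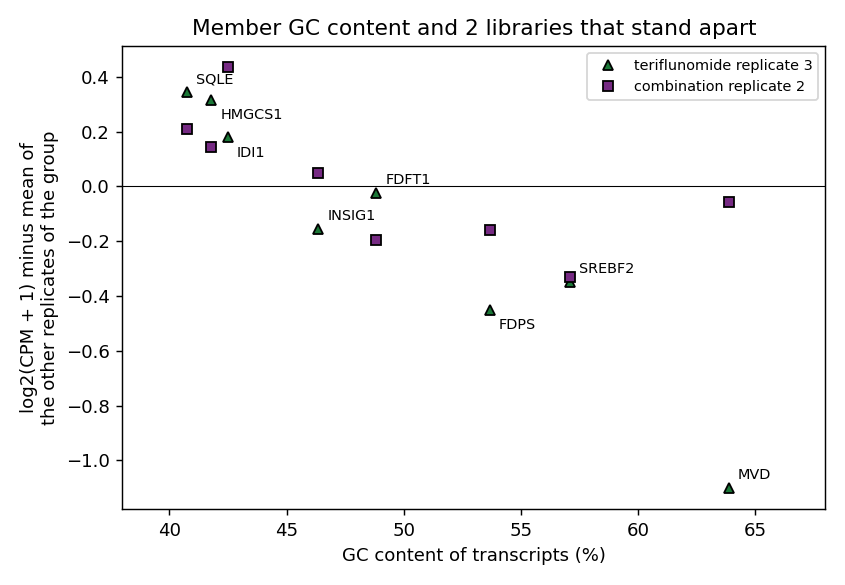
GC content of each gene's transcripts in percent (horizontal axis) against the log2(CPM + 1) of 1 library minus the mean of the other replicates of its group (vertical axis), for teriflunomide replicate 3 (triangles, labelled) and combination replicate 2 (squares at the same GC content). Triangles run from 0.34 in SQLE at 40.8% to -1.10 in MVD at 63.9%.

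Leaving out teriflunomide replicate 3, which was lower than its group in the GC-rich members, necessarily raised their teriflunomide values. MVD then had a log2 fold change over control of 0.36 (SE 0.109, edgeR adjusted p = 0.0510) in place of 0.06, FDPS of 0.21 (edgeR adjusted p = 0.109) in place of 0.08, and SREBF2 of 0.11 (edgeR adjusted p = 0.550). HMGCS1 was at 0.32 (edgeR adjusted p = 0.0299) and FDFT1 at 0.37 (edgeR adjusted p = 0.00931), both still called, beside 9.11% of all tested genes. SQLE was at 0.01 and IDI1 at 0.35, neither called. The rise of FDFT1 was as large without that library as with it, and that of HMGCS1 was smaller. For the combination against teriflunomide the same 7 members were called lower without that library, beside 73.2% of all tested genes called. MVD went from 0.06 to -0.24 there (edgeR adjusted p = 0.0606).

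Without combination replicate 2 the same 6 members were called lower than control, from -0.68 for HMGCS1 and -0.67 for SREBF2 to -0.37 for INSIG1. In that fit 5260 of 17043 tested genes were called higher than control and 5500 lower. The IDI1 value went from -0.09 to -0.25 (edgeR adjusted p = 0.107). Against lurbinectedin no member was called without that library, beside 259 of the 17043 tested genes. SREBF2 turned from -0.08 to 0.03 there and IDI1 went from -0.04 to -0.19. Against teriflunomide the same 7 members were called lower, from -1.10 for HMGCS1 to -0.50 for INSIG1, beside 5598 tested genes called higher and 5806 lower. For the interaction no member was called without that library, beside 66 of the 17043 tested genes.

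Members with longer genes were lower with lurbinectedin. Over the 8 genes the Spearman correlation between genomic span and the log2 fold change with lurbinectedin was -0.95, from IDI1 at 9.97 kb and -0.05 to SREBF2 at 74.2 kb and -0.69. Over all 16651 nuclear genes tested it was -0.57. For the combination against control the values were -0.90 and -0.55, and for teriflunomide against control -0.10 and 0.22. In 5 bins of equal gene number by span, median log2 fold changes with lurbinectedin were 0.69, 0.62, 0.28, -0.36 and -1.86 from the shortest to the longest. All 8 members lay below the median of their own bin. SREBF2, FDFT1 and MVD were still between the 25th and 75th percentiles of theirs, while HMGCS1, SQLE, FDPS, INSIG1 and IDI1 were below the 25th percentile. INSIG1, for example, was at -0.41 in a bin whose median was 0.62. These are descriptions across genes, which are not independent, and the part of gene length in the changes was not tested.

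**Figure D4:**
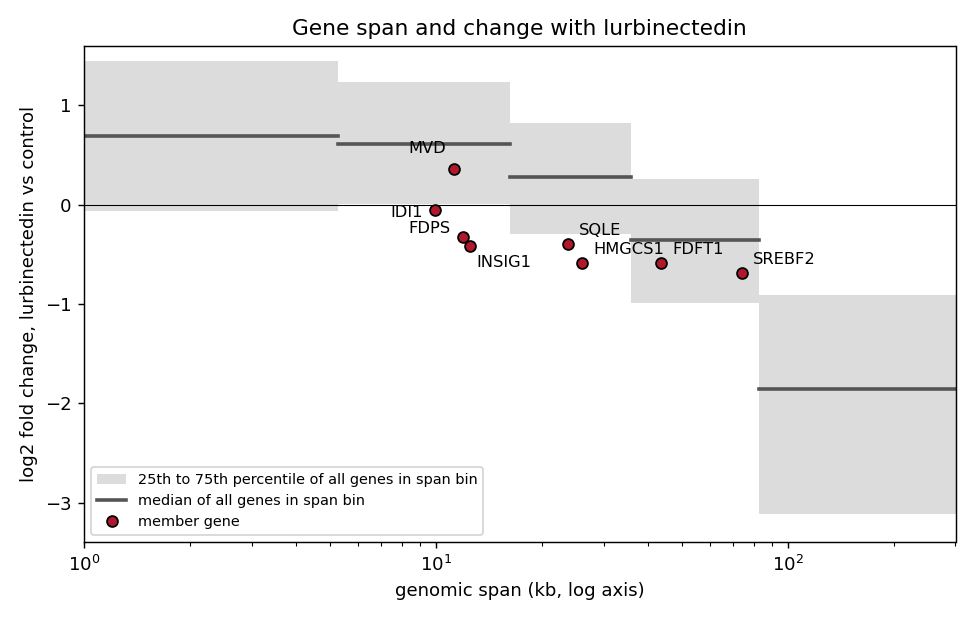
Genomic span in kb (horizontal log axis, cut at 1 and 300 kb) against log2 fold change with lurbinectedin over control (vertical axis); red points are the 8 genes, dark lines the medians and grey boxes the 25th to 75th percentiles of all nuclear genes tested in each of 5 span bins. All 8 points lie below the median line of their bin, from MVD at 0.36 against 0.62 to SREBF2 at -0.69 against -0.36.

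Of 19 other genes of sterol synthesis, written as a list from general knowledge, 17 were tested. With lurbinectedin 7 of the 17 were lower and 1 was higher, beside 35.7% and 36% of all tested genes. With the combination 8 were lower and 1 higher than control, beside 34.4% and 34.1%. The highest was TM7SF2, a sterol C14-reductase with a span of 4.54 kb, at 4.78 ± 0.353 CPM in control and 33.7 ± 0.738 CPM with lurbinectedin (SD, n = 3; log2 fold change 2.82, edgeR adjusted p = 7.40e-07). LBR, a nuclear envelope protein that carries the same reductase activity, went the other way, from 280 ± 6.26 to 128 ± 5.87 CPM (-1.12, edgeR adjusted p = 1.03e-07). GGPS1, which makes geranylgeranyl diphosphate from farnesyl diphosphate, fell from 25.6 ± 0.637 to 16.9 ± 1.14 CPM (-0.60, edgeR adjusted p = 0.000330). The median over the 17 was -0.28, against -0.40 over the 8 members and 0.05 over all tested genes.

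Teriflunomide raised 3 of the 17 and lowered 0, beside 3.88% and 2.13% of all tested genes, and 7 had an unadjusted p under 0.05, beside 24.8%. ACAT2, which joins the first acetyl units ahead of HMGCS1, was at 112, 112 and 106 CPM in control and 184, 162 and 197 CPM with teriflunomide, without overlap (log2 fold change 0.72, SE 0.0922, edgeR adjusted p = 0.00111). It held in all 6 fits that left out 1 library. SC5D, a late desaturase, was at 88.7, 91.5 and 83.8 CPM in control and at 137, 128 and 188 CPM with teriflunomide (0.78, SE 0.162, edgeR adjusted p = 0.0155), and its call was lost without control 1, 2 or 3 (edgeR adjusted p up to 0.0888). TM7SF2 was the third, at 4.52, 5.18 and 4.63 CPM against 12.1, 12.2 and 4.57 CPM (1.02, edgeR adjusted p = 0.0477); it was named for this comparison after its values were seen, and replicate 3 lay within the controls. ACAT2 was also the 1 gene of the 17 with a called interaction (-0.83, SE 0.130, edgeR adjusted p = 0.0168), beside 0.258% of all tested genes. This interaction was not followed in the alternative fits. With lurbinectedin ACAT2 was at 104 ± 1.24 CPM and with the combination at 95.7 ± 3.30 CPM.

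Of 9 regulators of SREBP processing and of INSIG or HMG-CoA reductase turnover, all tested, lurbinectedin lowered 5 and raised 2, 7 calls beside a background of 71.6% of all tested genes. INSIG2, the second sterol-sensing anchor, fell from 8.001 ± 0.316 to 3.51 ± 0.685 CPM (SD, n = 3; log2 fold change -1.18, edgeR adjusted p = 8.45e-05). MBTPS2, the site-2 protease that completes SREBP cleavage, fell from 43.4 ± 1.71 to 21.4 ± 1.88 CPM (-1.02, edgeR adjusted p = 1.17e-05). RNF139, a ubiquitin ligase of the endoplasmic reticulum, rose from 37.8 ± 2.11 to 68.9 ± 4.70 CPM (0.86), and UBE2G2, a ubiquitin-conjugating enzyme, from 88.4 ± 1.77 to 153 ± 4.37 CPM (0.79), with edgeR adjusted p-values of 2.54e-05 and 9.61e-07. MBTPS1, the site-1 protease that makes the first cut, and SCAP, the escort of SREBP-2, also fell, at -0.36 and -0.49, and were named after their values were seen. With teriflunomide edgeR called 0 of the 9, while 4 had an unadjusted p under 0.05, beside 24.8% of all tested genes. The 2 with the smallest edgeR adjusted p there were MBTPS2 at 0.35 (0.124) and SREBF1, which encodes SREBP-1, at -0.51 (0.154). SREBF1 was at 48.1, 47.6 and 51.6 CPM in control and at 43.4, 39.2 and 20.9 CPM with teriflunomide, where replicate 3 was again the lowest.

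Across the 12 libraries, Pearson correlations of log2(CPM + 1) between members ran from -0.61 for MVD and SQLE to 0.96 for HMGCS1 and SQLE. SREBF2 and FDFT1 correlated at 0.92 and SREBF2 and FDPS at 0.93, and MVD was below 0.11 with each of the other 7. The libraries come from 4 treatments, so these values mix differences between groups with differences between libraries of a group, which were not separated. Teriflunomide replicate 3, for example, differed from the mean of the other teriflunomide libraries by -1.10 in MVD and 0.34 in SQLE. The genes outside the set with the profile most like that of SREBF2 were PACS2 (0.99), SEPTIN9 (0.99) and UQCC1 (0.99), and those most like FDFT1 were BLOC1S5 (0.99), HEATR6 (0.99) and SIRT5 (0.99), each over 12 libraries. PACS2 was at 29.6 CPM in control and 11.2 CPM with lurbinectedin, and BLOC1S5 at 17.5, 21.2 and 12.5 CPM in control, teriflunomide and lurbinectedin.

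Summed over the 8 genes, the members made up 1179 ± 6.14 CPM in control (SD, n = 3), 1368 ± 50.9 CPM with teriflunomide, 868 ± 19.0 CPM with lurbinectedin and 817 ± 10.8 CPM with the combination. The sums of the 4 groups did not overlap under TMM scaling: they ran from 1336 to 1426 CPM with teriflunomide, 1172 to 1184 in control, 847 to 884 with lurbinectedin alone and 810.2 to 829.6 with both drugs. With total counts as the only scaling teriflunomide replicate 3, at 1184 CPM, lay below the controls at 1267 to 1297 CPM, and the combination at 673 to 890.2 CPM overlapped lurbinectedin at 753 to 844 CPM. The sum is a description of genes chosen with results of these data known and carries no test.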

How the data were processed

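Per the labels' protocols, libraries for RNA sequencing used the KAPA mRNA HyperPrep kit. The authors deposited 1 table of raw read counts per gene for each of 12 libraries; the submitters' processing notes name fastp 0.23.2, STAR 2.7.9, Subread and featureCounts, and the build hg38. Other settings are not given in the sources used here. Symbols matched 60463 of 60649 identifiers. CPM were computed from the deposited counts with TMM factors. edgeR 4.0.16 in R 4.3.3 kept 16683 genes by filterByExpr and fitted a robust quasi-likelihood model with 1 mean per group to all 12 libraries; each of 6 contrasts was adjusted by Benjamini and Hochberg's method, with calls at an adjusted p under 0.05. Standard errors came from the F statistic, and 95% intervals are approximate, from the normal quantile. The biological coefficient of variation was 14.5%. Scripts were tested on simulated data. DESeq2 1.42.0, other scalings and filters, a replicate block, a fit of the groups compared and leaving out each library were alternatives. Besides the 8 genes, the genes named are, from each list, the 4 of smallest adjusted p with lurbinectedin and the 2 with teriflunomide, and for SREBF2 and FDFT1 the 3 most correlated genes; genes named after their values were seen are marked. Some genes of the lists are not reported here. GC content is the median over a gene's GENCODE 29 transcripts. The members and lists were chosen with earlier results of these data known.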

Additional observations from a re-analysis of the deposited data

How the results depend on the processing

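Among the calls on the 8 genes, those of FDPS with lurbinectedin and of HMGCS1 and FDFT1 with teriflunomide were lost in some fits. Genes called with teriflunomide numbered 1002, against 265 with total counts as the only scaling, 1800 with no expression filter, 283 with only the groups compared in the fit, 1907 in DESeq2, 415 with the replicate block and 216 to 1555 when 1 library was left out (1555 without teriflunomide 3; 248, 265 and 216 without control 1, 2 and 3). For the interaction the 43 calls became 6 with total-count scaling, 195 with no filter, 258 in DESeq2, 8 with the replicate block, and 2 to 616 with 1 library left out (616 without teriflunomide 3). For the combination against lurbinectedin, 0 calls became 612 with no filter, 94 with only the groups compared, 584 in DESeq2 and 0 to 259 with 1 library left out (259 without combination 2). Nothing in the labels pairs libraries by replicate number. Deviations from the group means of same-numbered libraries of 2 groups correlated at -0.369 to 0.127. Differently numbered libraries were not compared, so these values do not say whether equal numbers shared a culture or day. Besides the teriflunomide calls of HMGCS1 and FDFT1, the replicate block changed no call of a member. The summed CPM of the members minus that of control was 189 for teriflunomide, -311 for lurbinectedin and -362 for both drugs, and under total-count scaling 127, -479 and -491; the combination differed from lurbinectedin by -51.1 and then -11.1, and from teriflunomide by -550.4 and then -618. Signs that turned were all of uncalled values. SREBF2 with teriflunomide (0.0034) was -0.0064 with DESeq2 size factors and in DESeq2, -0.061 with total-count scaling, -0.019 with no filter, -0.022 with only the groups compared, and -0.061 to 0.11 with 1 library left out. Total-count scaling also turned MVD to -0.035 (combination against control) and -0.061 (against teriflunomide), SREBF2, HMGCS1, IDI1 and SQLE to 0.0045, 0.023, 0.0061 and 0.036 (combination against lurbinectedin), and the interactions of SREBF2 and INSIG1 to 0.065 and 0.054. With 1 library left out, values ran for MVD from -0.14 to 0.36 and for FDPS from -0.011 to 0.21 (teriflunomide), and for IDI1 from -0.25 to 0.067 (combination against control). Against lurbinectedin the combination ran for SREBF2 from -0.14 to 0.031, HMGCS1 -0.084 to 0.0012, IDI1 -0.19 to 0.12 and SQLE -0.091 to 0.034. MVD ran from -0.24 to 0.26 (combination against teriflunomide) and the SREBF2 interaction from -0.18 to 0.036. The cause of these shifts was not tested.

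With 3 libraries a group and fold changes of 1.25 to 2.08, changes smaller than the spread of the libraries were not detectable. Labels give no dose or time, and relative counts give no amounts per cell.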

Other observations

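Most listed genes of fatty acid and triglyceride synthesis fell with lurbinectedin. Of 14 genes, all tested, 11 were lower and 1 higher, beside 35.7% and 36% of all tested genes, with a median log2 fold change of -0.83, against -0.40 over the cholesterol genes and 0.05 over all tested genes. ACACA, the acetyl-CoA carboxylase of cytosolic fatty acid synthesis, fell from 344 ± 11.1 to 17.1 ± 0.802 CPM (SD, n = 3; log2 fold change -4.34, edgeR adjusted p = 5.10e-11). ME1, which supplies NADPH, fell from 22.1 ± 1.13 to 0.858 ± 0.291 CPM (-4.65, edgeR adjusted p = 1.88e-09), and ELOVL6, a fatty acid elongase, from 102 ± 3.01 to 9.47 ± 1.52 CPM (-3.42, edgeR adjusted p = 4.40e-09). ACACB, the carboxylase of the mitochondrial surface, fell from 11.1 ± 1.07 to 3.20 ± 0.363 CPM (-1.80, edgeR adjusted p = 4.08e-07). These 4 genes span 152 to 322 kb, longer than any of the 8 cholesterol genes, and the part of length was not tested. PNPLA3, a lipase of lipid droplets named after its values were seen, was the 1 gene that rose (0.59, edgeR adjusted p = 0.00311). With teriflunomide 1 of the 14 rose (3.88% of all tested genes did), ACSS2, which makes acetyl-CoA from acetate, from 30.0 ± 1.01 to 47.3 ± 6.77 CPM (0.66, edgeR adjusted p = 0.0245); its call held in 1 of 6 fits that left out 1 library, the fit without teriflunomide 3. ACACB was at 0.36 (edgeR adjusted p = 0.165).

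Genes of cholesterol uptake, storage and efflux moved both ways with lurbinectedin: of 23 listed and 22 tested, 8 rose and 10 fell, beside 36% and 35.7% of all tested genes, with a median of -0.15. ABCA1, the transporter that loads cholesterol onto apolipoproteins, fell from 47.9 ± 0.742 to 6.19 ± 1.21 CPM (SD, n = 3; -2.94, edgeR adjusted p = 1.65e-08), and ABCG1, a partner exporter, from 6.76 ± 0.612 to 1.21 ± 0.283 CPM (-2.46, edgeR adjusted p = 2.16e-07). LIPA, the lysosomal lipase that frees cholesterol from its esters, fell from 2508 ± 80.2 to 956 ± 47.0 CPM (-1.39, edgeR adjusted p = 1.53e-07), and LRP8, a lipoprotein receptor, from 89.6 ± 3.37 to 30.0 ± 3.05 CPM (-1.58, edgeR adjusted p = 1.64e-07). ABCA1, ABCG1, LIPA and LRP8 span 86.1 to 201 kb, in the bin of longest genes. The median log2 fold change of that bin with lurbinectedin was -1.86 (25th to 75th percentile -3.12 to -0.91). Each of these genes lay between those percentiles, and the part of length was not tested. With teriflunomide 1 of the 22 rose, beside 3.88% of all tested genes. It was STARD4, a sterol carrier of the cytosol, at 24.6, 25.4 and 25.2 CPM in control and 41.9, 47.0 and 52.5 CPM with the drug (0.91, SE 0.131, edgeR adjusted p = 0.00191). That call held in all 6 fits that left out 1 library. STARD4 was also higher with lurbinectedin (0.45, edgeR adjusted p = 0.00675) and with the combination (0.82, edgeR adjusted p = 7.99e-05) than in control, and these comparisons share the control libraries. ABCG1 was at 0.64 with teriflunomide and did not pass the threshold (edgeR adjusted p = 0.0522). DESeq2 called it higher (adjusted p = 0.0135). So did edgeR with no filter, a filter at 1 CPM, and without teriflunomide 3 (edgeR adjusted p of 0.0283, 0.0482 and 0.00491). The other alternative fits did not call it.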
